A study of Mus musculus with 3 samples.

Results

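The FOS and JUN genes encode the core subunits of AP-1, a transcription factor made of paired proteins. The 7 genes Fos, Fosb, Fosl1, Fosl2, Jun, Junb and Jund were chosen by name, out of 55536 genes in the gene table and 22015 protein-coding genes of the nuclear genome. They were measured by total RNA sequencing after ribosomal RNA depletion, in cytosolic RNA of macrophages that were grown as primary cells from the bone marrow of mice. The 3 libraries form 1 group: C57BL/6J cells exposed to 100 ng/ml Lipid A, the part of bacterial lipopolysaccharide that Toll-like receptor 4 recognises, for 40 minutes. The labels call the libraries biological replicates and give no genetic change, no age and no sex. All 3 replicates carry 1 donor record, so whether they came from separate animals or cultures is not known. The p-values below thus speak only of how these libraries vary, which may be technical. Unstimulated cells and other fractions were not analysed here, so each value is a level at this time point and not a response to Lipid A.

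AP-1 binds DNA as a dimer held together by a leucine zipper. JUN proteins can pair with each other or with a FOS protein, whereas FOS proteins need a JUN partner for stable binding. Several of these genes are immediate early genes, transcribed within minutes of a signal through MAP kinases without new protein synthesis, and their messages are known for rapid decay. In macrophages AP-1 works with NF-kB at cytokine genes.

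The labelled cell type was checked against its markers. All 8 macrophage markers had a mean of 1 TPM or more and summed to 9575, 8315 and 5615 TPM in replicates 1, 2 and 3, where TPM is a level scaled for transcript length and for a common library total. The 23 markers of other cells (dendritic, neutrophil, erythroid, stromal, lymphocyte, and mast cell or basophil) summed to 46.2, 39.7 and 35.6 TPM, and 20 of them had a mean under 1 TPM. The other 3 were all neutrophil markers: S100a9 at 25.0, 24.1 and 19.7 TPM, S100a8 at 17.0, 10.4 and 10.8 TPM, and Ngp at 2.18, 3.09 and 3.13 TPM. Neutrophil markers thus held most of that sum, at 44.2, 37.6 and 33.6 TPM, although Ly6g, a neutrophil surface marker, was at 0 in every library. Gene counts summed to between 37136495 and 58889061 per library. Replicate 3 stood apart: nuclear protein-coding genes held 32.8%, 36.2% and 23.5% of TPM in replicates 1, 2 and 3, and Malat1, a long noncoding RNA retained in the nucleus, was at 291, 264 and 898 TPM.

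Sequence shows how the 2 families differ. On build mm10 (GRCm38) with GENCODE M21, each of the 4 FOS genes has a main transcript of 4 exons, and the third exon is 108 bases long in all of them. That exon is shown because it carries the basic region with which FOS proteins touch DNA, and because it shows how alike the 4 members are. Capitals mark the 62 positions at which all 4 genes have the same base.
Fos, chr12:85475592-85475699, plus strand: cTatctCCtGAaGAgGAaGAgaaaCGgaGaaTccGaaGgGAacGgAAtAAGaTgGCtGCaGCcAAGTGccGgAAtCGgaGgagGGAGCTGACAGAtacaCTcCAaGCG
Fosb, chr7:19306559-19306666, minus strand: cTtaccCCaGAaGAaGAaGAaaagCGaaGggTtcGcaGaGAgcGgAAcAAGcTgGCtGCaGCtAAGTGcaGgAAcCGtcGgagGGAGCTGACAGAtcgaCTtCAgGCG
Fosl1, chr19:5454413-5454520, plus strand: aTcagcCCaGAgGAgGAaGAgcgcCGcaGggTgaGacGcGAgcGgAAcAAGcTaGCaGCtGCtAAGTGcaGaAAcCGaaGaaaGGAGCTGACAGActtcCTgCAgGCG
Fosl2, chr5:32150421-32150528, plus strand: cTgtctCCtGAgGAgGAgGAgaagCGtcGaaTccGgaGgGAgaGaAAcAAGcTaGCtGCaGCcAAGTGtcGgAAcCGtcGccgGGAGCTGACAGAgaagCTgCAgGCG

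Fos and Fosl2 shared 77.8% of the bases of this exon, the highest of the 6 pairs, and Fosl1 shared 66.7% with both Fos and Fosl2, the lowest. The 3 JUN genes have main transcripts of 1 exon each, as have 2.57% of the 11167 detected protein-coding genes with an annotated 3′ untranslated region, whose median was 9 exons. Jun (chromosome 4, 95049034 to 95052222, minus strand), Junb (chromosome 8, 84974484 to 84978718, minus strand) and Jund (chromosome 8, 70698949 to 70700616, plus strand) therefore have no intron in their main transcript to separate spliced from unspliced RNA.

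Among the JUN genes, Junb was highest. Junb encodes a JUN protein that activates weakly on its own and often restrains c-JUN. It was at 536, 602 and 367 TPM in replicates 1, 2 and 3 (mean 502 ± 121, SD, n = 3), which ranked 67 among 11460 detected protein-coding genes, those with a mean of at least 0.1 TPM. Jun encodes c-JUN, the strongest activator of its family and a substrate of JNK kinases. It was at 190, 189 and 134 TPM (171 ± 32.1, SD, n = 3; rank 271). Jund encodes the JUN protein that is usually present without a stimulus. It was at 46.9, 53.9 and 39.2 TPM (46.7 ± 7.39, SD, n = 3; rank 1014). The ranges of Junb, Jun and Jund did not overlap. All 3 were lowest in replicate 3, the library with the lowest share of TPM in nuclear protein-coding genes. With TPM rescaled to the sum of those genes, Junb was at 1635, 1663 and 1561, Jun at 579, 524 and 570 and Jund at 143, 149 and 166, so that replicate 3 was lowest for Junb alone and highest for Jund.

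Among the FOS genes, Fos was highest. Fos encodes c-FOS, the classic immediate early partner of c-JUN. It was at 368, 482 and 450 TPM (433 ± 58.4, SD, n = 3; rank 82), and its range overlapped that of Junb. Rescaled in the same way it was at 1124, 1332 and 1911, highest in replicate 3. Fosb encodes FOSB and, by splicing, the shorter ΔFOSB. It was at 31.8, 74.6 and 32.5 TPM (46.3 ± 24.5, SD, n = 3; rank 1022), so that replicate 2 stood above both other libraries. The share of TPM in nuclear protein-coding genes was also highest there, and with TPM rescaled to the sum of those genes Fosb was at 97.1, 206 and 138, still highest in replicate 2. In bulk RNA, fewer cells that express a gene and less of its RNA per cell cannot be told apart. Fosl2 encodes FRA-2, a FOS protein without the strong activation domain of c-FOS. It was at 21.9, 33.5 and 17.5 TPM (24.3 ± 8.27, SD, n = 3; rank 1978), also highest in replicate 2. It was the 1 detected member outside the highest 10% of detected protein-coding genes, which began at 41.6 TPM, while the median of those genes was 6.13 TPM.

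Fosl1, which encodes FRA-1, was at or near 0 in all 3 libraries. It had an expected count of 0 in replicates 1 and 2 and of 4.21 in replicate 3, or 0, 0 and 0.04 TPM. With 3 counts taken as the limit that a count of 0 allows, its level could have been up to 0.0334 TPM in replicate 1 and 0.0356 TPM in replicate 2, counting error only. The second quantification gave 0, 0 and 5.20 counts. Fosl1 entered neither of the tests below.

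**Figure D1:**
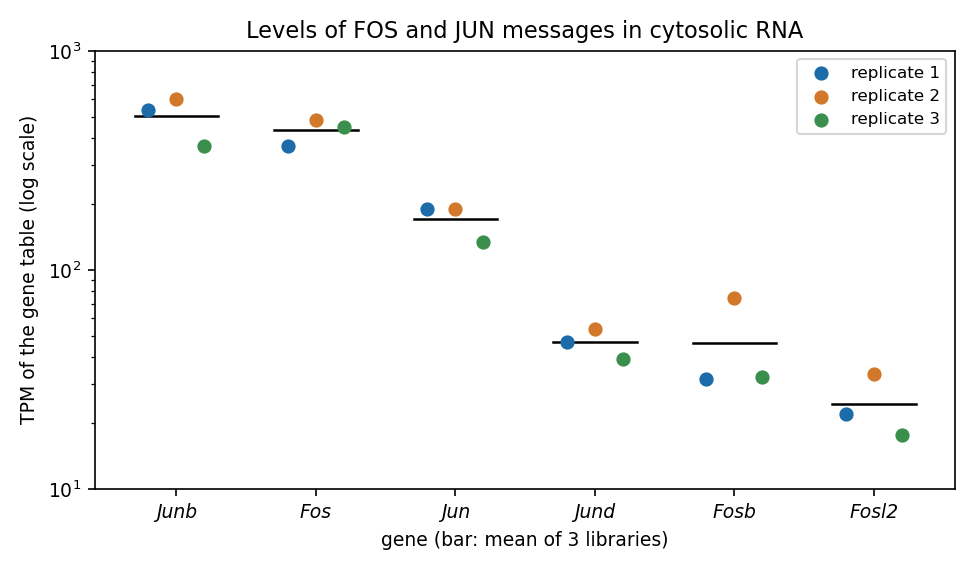
Level of each detected FOS and JUN gene in TPM on a log axis, 1 point per library, with a bar at the mean of the 3 libraries. Junb lies between 367 and 602 TPM and Fos between 368 and 482 TPM, Jun lies between 134 and 190 TPM, and Jund, Fosb and Fosl2 lie lower; Fosl1, at 0, 0 and 0.04 TPM, is not drawn.

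The FOS genes together made up 422, 590 and 500 TPM and the JUN genes 772, 845 and 540 TPM in replicates 1, 2 and 3. The FOS share of this total was thus 35.3%, 41.1% and 48.0% (mean 41.5 ± 6.36, SD, n = 3). JUN messages were the larger part in all 3 libraries, although the second quantification put the FOS share of replicate 3 at 49.98%. Junb alone was 40.7% ± 4.89 of the total and Fos 35.9% ± 6.51 (SD, n = 3), while Jund, Fosb and Fosl2 each made up 3.82%, 3.66% and 1.95% on average. The Fos part includes Fos-202, an annotated noncoding transcript described below, at 2.32, 21.9 and 129 TPM in replicates 1, 2 and 3. All these values are shares of RNA, not all of it coding, and not of protein.

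The order of the members was tested between neighbours, within each library, on log2(TPM + 1). limma was fitted to the difference of every detected protein-coding gene from the higher member, with Benjamini-Hochberg adjustment over all 11459 genes. All these differences share the noise of that 1 member, yet the fit pools variance over genes as if they were independent. The limma p-values of pairs are therefore smaller than 3 libraries alone can give, and the differences per library are the safer guide. With so wide a range of levels nearly every gene differs from a given member: 99.7% of genes differed from Junb, 99.4% from Fos, 99.2% from Jun, 96.7% from Jund and 89.9% from Fosb at an adjusted p under 0.05. Of the 5 neighbouring pairs, which were chosen as closest in rank on these same values, 3 differed. On simulated data with 11459 genes this test recovered 2% of differences of 0.5 and 88% of differences of 1 on the log2 scale. In that simulation few genes differed and the higher member had no noise, unlike here, so these rates are not the power of the test as run. A pair that does not pass is not shown to be equal. Fos exceeded Jun by 0.95, 1.34 and 1.74 (mean 1.34 ± 0.39, SD; limma adjusted p = 7.287e-10), in 3 of 3 libraries. Jun exceeded Jund by 1.99, 1.79 and 1.75 (1.85 ± 0.13; limma adjusted p = 5.924e-11), the pair with the narrowest spread.

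Fosb exceeded Fosl2 by 0.52, 1.13 and 0.85 (0.83 ± 0.31, SD; limma adjusted p = 0.01822), in 3 of 3 libraries, but this call was lost without replicate 3 (0.82, adjusted p = 0.1687). Junb and Fos were not separated. Their difference was 0.54, 0.32 and -0.29 (0.19 ± 0.43, SD; limma adjusted p = 0.2017), with Fos the higher in replicate 3. Without replicate 3 Junb was higher by 0.43 (adjusted p = 0.00377). Jund and Fosb were not separated either, at 0.55, -0.46 and 0.26 (0.12 ± 0.52, SD; limma adjusted p = 0.4495), with Fosb the higher in replicate 2. Without replicate 2 Jund was higher by 0.40 (adjusted p = 0.003356), and without replicate 1 the mean turned to -0.10. The order of these close pairs also turned with the measure. In the second table Junb minus Fos was -0.061. In counts per library size with no scaling for length (CPM), Jund minus Fosb was -1.02 (limma adjusted p = 3.892e-07). Fosb minus Fosl2 was -0.11 in CPM and no longer called (limma adjusted p = 0.7525).

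**Figure D2:**
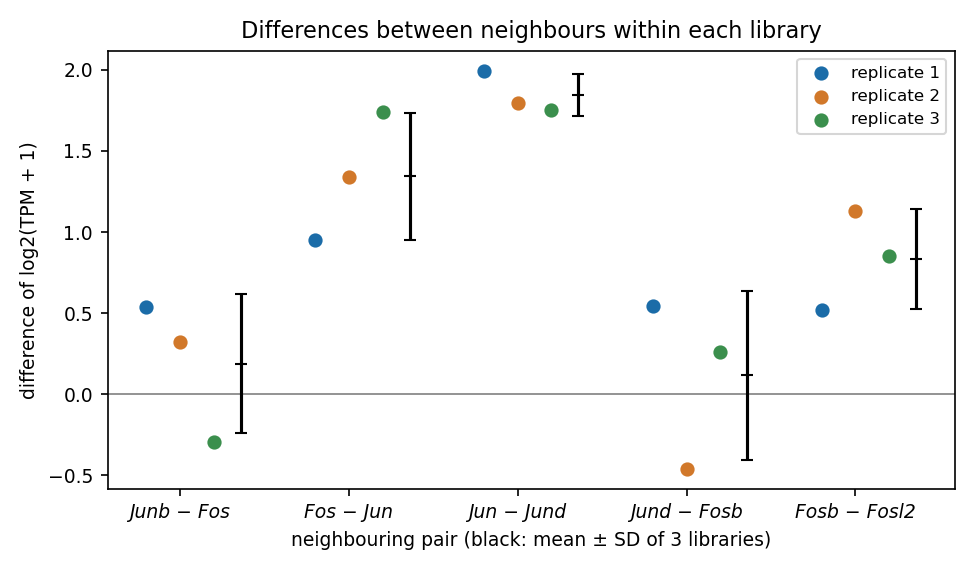
Difference of log2(TPM + 1) between neighbouring members in each library, with the mean and SD of the 3 libraries in black. Fos minus Jun, Jun minus Jund and Fosb minus Fosl2 lie above 0 in all 3 libraries, and the other 2 pairs lie on both sides of 0.

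The level of Fos depended on how its reads were divided among its transcripts. Fos-201, the coding message, was at 365, 454 and 319 TPM in the first transcript table. Fos-202 is an annotated noncoding transcript of 631 bases of which only 24 bases, the last of the first intron, lie outside Fos-201. It was at 2.32, 21.9 and 129 TPM, or 0.630%, 4.55% and 28.8% of Fos. The start of Fos-202 is printed because these bases set it apart from the coding message, and capitals mark the 24 intron bases.
Fos-202, chr12:85474911-85474970, plus strand: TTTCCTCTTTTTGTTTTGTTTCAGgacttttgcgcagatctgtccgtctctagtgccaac

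Because Fos-202 is short, its share in counts was smaller, at 0.137%, 1.01% and 8.02% of the expected counts of Fos. The second table, quantified from the reads directly, gave Fos-202 20.6%, 32.9% and 39.3% of the TPM of Fos. Its share was lowest in replicate 1 and highest in replicate 3 in both tables, whereas its TPM in the second table was 40.5, 96.6 and 56.1, highest in replicate 2. Malat1 was also highest in replicate 3, and so were Neat1, another nuclear noncoding RNA, at 27.8, 16.9 and 77.8 TPM, and the median share of retained-intron transcripts over 5945 protein-coding genes, at 1.03%, 0.428% and 1.97%. Those 3 measures were lower in replicate 2 than in replicate 1, whereas the share of Fos-202 was higher there, and their part in the Fos-202 share was not tested. With Fos counted as Fos-201 alone, a choice made after seeing the data, Junb exceeded Fos by 0.39 ± 0.18 (SD, n = 3 libraries; limma adjusted p = 0.007242).

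Splicing of Fosb gave similar shares in both tables. A stretch of 140 bases inside the coding sequence of Fosb-201 is removed in Fosb-206 and Fosb-207. Loss of this stretch is known from ΔFOSB, a shorter protein that lacks the C-terminal activation domain. The stretch is printed because its use separates the 2 proteins, with capitals on the 2 bases at each end, the GT and AG at which introns commonly begin and end.
Fosb, chr7:19305007-19305146, minus strand: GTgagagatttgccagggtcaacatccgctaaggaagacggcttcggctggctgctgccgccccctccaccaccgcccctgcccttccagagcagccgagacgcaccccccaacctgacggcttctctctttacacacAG

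Transcripts without the stretch made up 26.6%, 34.2% and 21.7% of Fosb TPM in the first table (27.5% ± 6.27, SD, n = 3) and 26.3%, 29.4% and 21.4% in the second (25.7% ± 4.04). The 2 tables divided that share differently. Fosb-206 took 9.94%, 17.0% and 8.41% in the first table and 19.3%, 21.6% and 14.8% in the second, and Fosb-207 took 16.7%, 17.2% and 13.3% in the first and 7.08%, 7.71% and 6.56% in the second. Fosb-206 is annotated with a short 3′ end and Fosb-207 without the third exon. The annotation thus holds 0 transcripts that join the third exon, the loss of the stretch and the full 3′ end, and the division between the 2 rests on that annotation. Without the exon of the basic region, Fosb-207 as annotated is not the full structure of ΔFOSB. The summed share is therefore one of this splice and not of ΔFOSB message. Fosb-202 and Fosb-203 were at 0 in both tables.

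**Figure D3:**
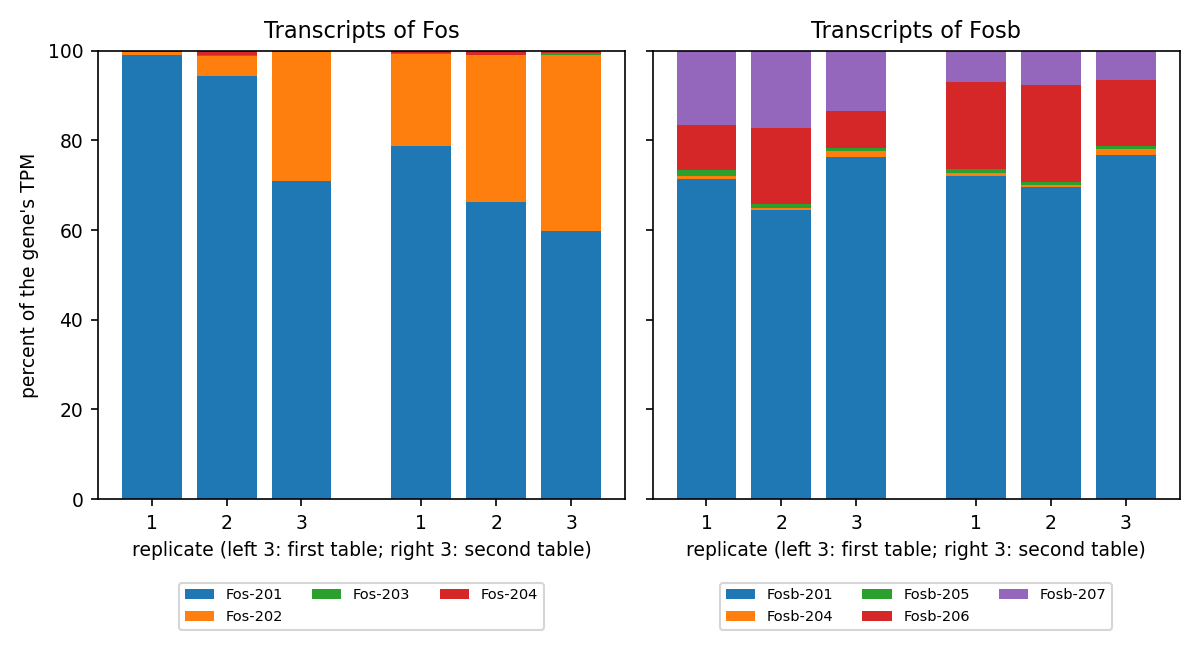
Share of each transcript in the TPM of Fos (left panel) and Fosb (right panel), as stacked bars that sum to 100%, for replicates 1 to 3 in the first and second transcript table. Fos-202 ranges from 0.630% to 39.3% of Fos across libraries and tables, while Fosb-206 and Fosb-207 together range from 21.4% to 34.2% of Fosb.

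Transcripts annotated as retaining an intron were a small part of Fosb and Fosl2 in the first table. They were 0.660%, 0.496% and 1.29% of Fosb, and 1.46%, 0.447% and 3.88% of Fosl2. The medians over protein-coding genes, given above, were 1.03%, 0.428% and 1.97%. Fos has no transcript annotated in this class, so Fos-202, which begins with intron bases, is not counted here. In the second table the medians were 1.76%, 0.924% and 3.40%, Fosb had 0.551%, 0.461% and 1.43%, and Fosl2 had 1.92%, 14.5% and 7.59%, where 14.3% in replicate 2 came from Fosl2-203. Other genes overlap the JUN genes. Gm11175, annotated antisense inside Jund, had 44.3, 0 and 347 expected counts in the gene table against 0, 0 and 1.79 in the second table, while Jund had 3707, 4004 and 6266 against 5081, 6097 and 8613. The Jund counts thus differed between the tables by more than the counts of Gm11175, also in replicate 2 where Gm11175 had 0 in both, and the cause was not tested. No source used here says if counting used strand, so reads of Jund and Gm11175 cannot be told apart with certainty. Junos, antisense to Jun, had between 7.11 and 19.3 expected counts, against at least 28988 for Jun. Prdx2, a peroxiredoxin gene on the other strand with 3227, 2589 and 4337 expected counts, overlaps the Junb gene only where Junb-202 lies, which had 1.01, 0 and 5.02 expected counts.

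Whether a member varied more between the 3 libraries than genes of its abundance was tested with edgeR on rounded expected counts, by the goodness of fit to a trended dispersion with Benjamini-Hochberg adjustment. Of 12250 genes, 1.71% were called at an adjusted p under 0.05 (209 genes), and 0 of the 6 members tested were among them. The number of genes called was 114, 129 and 59 without replicates 1, 2 and 3. At an unadjusted p under 0.05, 753 of the 12250 genes passed, with Fosb as the 1 of the 6 members among them. Fosb was at 7.22, 8.26 and 7.71 log2 CPM, counts scaled for library size without regard to length, with an SD of 0.52 (edgeR adjusted p = 0.06611). It was 1 of the 59 genes called without replicate 3 (SD 0.74, edgeR adjusted p = 0.01597). Fosl2 followed with an SD of 0.28 and Fos with 0.19. The median SD was 0.16 over all genes tested, which are not matched to the members in abundance. Jun, Junb and Jund had SDs of 0.05, 0.08 and 0.09, but the order of the members by SD was not tested and changed with the libraries used. Without replicate 1 the SD of Fos was 0.10 and that of Junb 0.12, and without replicate 2 that of Fosl2 was 0.07 and that of Jund 0.13.

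**Figure D4:**
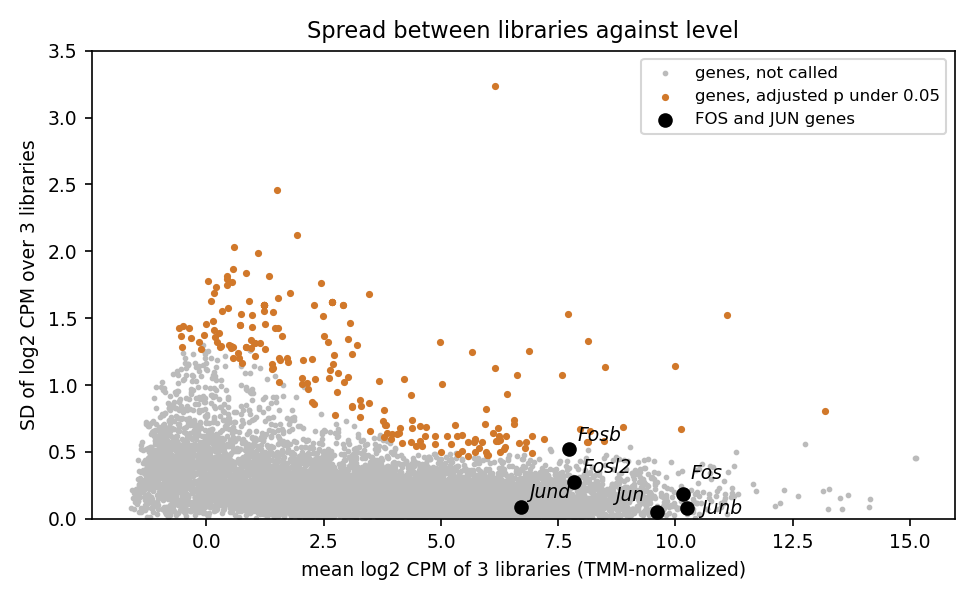
SD of log2 CPM over the 3 libraries against the mean log2 CPM of each gene tested, with called genes in orange and the 6 FOS and JUN genes tested in black. Fosb lies highest of the members, at an SD of 0.52, and Jun lowest, at 0.05.

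The genes nearest to each member in level over the 3 libraries were found by the root mean square difference of log2(TPM + 1), a measure of level and not of shared control. Jun lay closest to Ccl7, a monocyte chemokine, at 187, 188 and 134 TPM (difference 0.02), followed by Cltc and Slc6a6. Near Junb lay Dusp1 (0.04) and Hexa (0.06). Dusp1, an immediate early MAP kinase phosphatase, was at 511, 613 and 361 TPM. Fos lay closest to Plin2, a lipid droplet protein, at 351, 481 and 451 TPM (0.04), and its next neighbours Ctsa and Myl6 were further away (0.26 and 0.27). Fosb lay closest to Bnip3l, a mitophagy receptor, at 35.9, 77.7 and 30.9 TPM (0.11), then Iqsec1 and Cyb5r3. Fosl2 lay closest to Sgta, Mea1 and Rex1bd, and Jund to Ube2d2a, Ewsr1 and Plxna1.

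The 3 members with the highest levels were also those with the densest ATTTA pentamers, the core of AU-rich elements that decay factors bind, in the 3′ untranslated region of the main transcript. Fos had 4 in 815 bases (4.91 per kb), Junb 2 in 485 bases (4.12 per kb) and Jun 4 in 1233 bases (3.24 per kb). Of detected protein-coding genes, 7.39%, 10.8% and 18.0% were as dense, and the median was 1.23 per kb. Jund had 1 (1.88 per kb), Fosl2 8 in 4653 bases (1.72 per kb), Fosl1 1 (1.57 per kb) and Fosb 1 in 2145 bases (0.47 per kb), so density did not follow family. At least 1 pentamer occurred in 65.5% of detected genes. Each site below is 30 bases of that region, shown to compare the 3 dense members, with ATTTA in capitals. Fos carries 2 overlapping copies in its site.
Fos, chr12:85477090-85477119, plus strand: aacgtttttattgtgttttcaATTTATTTA
Junb, chr8:84977139-84977168, minus strand: catattgaatataatatatttgtgtATTTA
Jun, chr4:95049210-95049239, minus strand: gtgatcATTTAtaatcataggaaagATTTA

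RefSeq promoters on GRCm38.p6, 250 bases before to 50 after the start, were held for 6 of the 7 members (Fosl1 was the exception). They were searched on both strands for TGACG (the core of CREB and ATF sites), TGANTCA (the AP-1 site), TGACATCA (the AP-1-like site known from Jun), TATAAA and the CArG box of SRF. TGACG lies 129 and 66 bases upstream of the Fos start, and 20.9% of 32544 promoters hold it. In Fosb it lies 60 bases upstream of the RefSeq start and 54 bases upstream of the GENCODE start. In Junb these distances are 106 and 136 bases. TGACATCA lies 45 bases upstream of the Jun start and occurs in 3.37% of promoters. TATAAA lies 33 bases upstream in Fos, and in Junb 30 bases upstream of the GENCODE start, which differs from that of RefSeq, and 13.6% of promoters hold it. TGANTCA (7.79% of promoters) and the CArG box (1.64%) were found in none of the 6 windows. Sites more than 250 bases upstream were not searched, so this does not show that Fos or another member lacks them. The RefSeq start lies 671 bases downstream of the GENCODE start in Fosl2 and at -1210 bases from it in Jund, so those 2 windows do not flank the start of the GENCODE genes measured. The 140 bases before the GENCODE start are printed for the 3 members with the highest levels, with these motifs in capitals.
Fos, chr12:85473750-85473889, plus strand: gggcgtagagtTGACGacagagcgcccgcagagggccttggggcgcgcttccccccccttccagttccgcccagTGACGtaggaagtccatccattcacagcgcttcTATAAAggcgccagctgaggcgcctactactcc
Jun, chr4:95052223-95052362, minus strand: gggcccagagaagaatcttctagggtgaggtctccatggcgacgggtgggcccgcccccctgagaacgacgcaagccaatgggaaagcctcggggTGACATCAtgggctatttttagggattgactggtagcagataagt
Junb, chr8:84978719-84978858, minus strand: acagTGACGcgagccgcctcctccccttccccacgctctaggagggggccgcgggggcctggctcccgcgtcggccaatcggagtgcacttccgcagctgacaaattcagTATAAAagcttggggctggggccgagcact

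The other genes of the pathway were taken from 6 lists of 65 genes in all. Of the 13 dimer partners, bZIP proteins that can pair with FOS or JUN, all had a mean of 1 TPM or more (Batf3, picked out after its values were seen, was at 0.33 TPM in replicate 2), with a median of 13.8 TPM against 46.7 TPM over the 7 members, and 0 of 12 tested were called by the edgeR spread test. Atf3, a stress-induced partner of JUN, was at 290, 337 and 175 TPM, above Jun in replicates 1, 2 and 3. Maf (105 TPM on average) and Atf4 (42.4 TPM) followed. Of the 15 kinases upstream, 14 had a mean of 1 TPM or more (median 16.3 TPM), with Map2k6, picked out likewise, at 1.34, 0.92 and 0.74 TPM. Mapk3, which encodes ERK1, was highest at 58.1 ± 17.1 TPM (SD, n = 3), Map2k2 was at 29.2 TPM, and Mapk10, the JNK3 gene, was at 0, 0 and 0.01 TPM.

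All 10 promoter factors had a mean of 1 TPM or more (median 14.8 TPM), led by Mef2c at 31.2 TPM, Ep300 at 27.9 TPM and Mef2a at 25.3 TPM. Srf, whose protein binds the serum response element of Fos, was the 1 of them that varied between libraries, at 4.54, 4.93 and 5.53 log2 CPM (edgeR adjusted p = 0.03679). The 8 message decay factors had a median of 30.2 TPM. Zfp36 encodes tristetraprolin, which binds AU-rich elements, and was at 915, 1227 and 639 TPM, above all 7 members in each library. Zfp36l1 (182 TPM) and Zfp36l2 (62.4 TPM) followed. The 4 genes of protein turnover ranged from Det1 at 1.91 TPM to Cop1 at 19.5 TPM, with Itch at 15.2 TPM and Fbxw7 at 8.74 TPM between them.

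Of 15 genes known as AP-1 targets, 11 had a mean of 1 TPM or more and 6 were in the highest 10% of detected genes, with a median of 38.8 TPM. Spp1, which encodes osteopontin, was at 1195 ± 206 TPM, the cytokine gene Tnf at 1065 ± 418 TPM and Il1b at 485 ± 188 TPM (SD, n = 3). Mmp3, a matrix metalloprotease gene, was at 0, 0 and 0.01 TPM. Ccnd1, which encodes cyclin D1, was the 1 target of 13 tested that varied between libraries, at 5.42, 6.08 and 6.40 log2 CPM (edgeR adjusted p = 0.03332). All 3 nuclear RNAs listed were also called by that test.

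**Figure D5:**
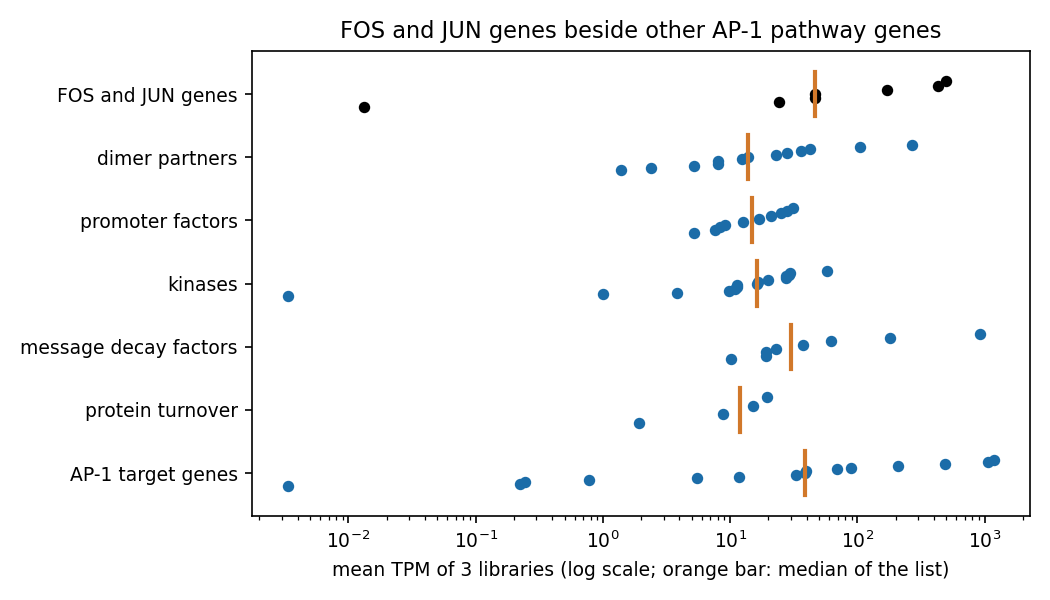
Mean TPM of the 3 libraries on a log axis for the 7 FOS and JUN genes and for each gene of 6 lists of the AP-1 pathway, with an orange bar at the median of each list; height within a row has no meaning. The members have a median of 46.7 TPM and run from Fosl1 at 0.0133 TPM to Junb at 502 TPM.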

How the data were processed

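Per the deposited notes, mm10 and GENCODE M21 underlie 1 gene table and 2 transcript tables per library. The authors' expected counts and TPM in the gene table and first transcript table came from a transcriptome alignment, and the authors' estimated counts and TPM in the second were made without that alignment. Tools and strand use: not given in the sources used here.

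From these, members were matched by symbol. Neighbouring members were compared with limma 3.58.1 on log2(TPM + 1), and spread was tested with edgeR 4.0.16 in R 4.3.3 on rounded expected counts (filterByExpr, TMM, trended dispersion), both adjusted by Benjamini-Hochberg at 0.05. Both procedures were tested on simulated data. Levels, shares and isoforms were described without a test. Sequences came from GENCODE M21 transcripts and RefSeq promoters (GRCm38.p6).

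Named genes were the 7 members, for each pathway list the 3 highest, those under 0.1 TPM and those called by the spread test, and the 3 nearest genes of each member; others named are marker or overlapping genes, and 2 genes that the rule selects are not reported here. Members and lists were chosen with earlier results of these data known.

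Library sums of expected counts were 37861150, 37136495 and 58889061. Alternatives covered each replicate left out, scaling, filters, pseudocounts and the second table.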

Additional observations from a re-analysis of the deposited data

How the results depend on the processing

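The 3 of 5 neighbouring pairs called became between 3 and 4 with 1 replicate left out, and 3 or 4 under every other setting run. Without replicate 3 and in CPM, the 3 pairs called were not the same as in the main test. Of 60 pair results under alternatives, 52 kept direction and call, 1 was lost, 3 were gained and 4 changed sign: Jund minus Fosb to -0.10 without replicate 1 and to -1.02 in CPM, which is not scaled for length (limma adjusted p = 3.892e-07), Fosb minus Fosl2 to -0.11 in CPM (limma adjusted p = 0.7525), and Junb minus Fos to -0.061 in the second table. Sign changes were counted apart. The call of Fosb minus Fosl2 that CPM lost is thus not among the lost, nor the call of Jund minus Fosb in CPM among the gained. Without replicate 2, Jund minus Fosb rose to 0.40 and was called. Genes called by the edgeR spread test fell from 209 to between 59 and 129 with 1 replicate left out, and to 115 with protein-coding genes alone; members called were between 0 and 1. The FOS share of the FOS and JUN total ran from 38.2% to 44.6% with 1 replicate left out. It was 43.1% in CPM and 44.8% in the second table, where replicate 3 was at 49.98%. This share was not computed with Fos counted as Fos-201 alone. Levels in the second table were lower for every detected member, as Fos at 211 TPM against 433, and the cause was not tested. Members were compared within each library, but no paired comparison of conditions was possible because the 3 libraries form 1 group. At this depth Fosl1 was not detectable in 2 of 3 libraries, and 3 libraries limit the tests. On simulated data with 12250 genes the spread test recovered 20% of genes raised 2-fold and 87.8% of those raised 4-fold. In that simulation genes were raised in replicate 3 alone and all counts followed the fitted dispersion trend. These rates are therefore not the power of the test as run.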
